A study of Drosophila melanogaster with 9 samples.

Results

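Chd1 encodes a chromodomain helicase, an ATP-driven enzyme that slides, spaces and assembles nucleosomes and that is found on transcribed genes. In Drosophila it also helps to load the histone variant H3.3, and flies without it can be raised to adulthood. The transcription factor Gal4, a yeast protein, switches on any transgene placed behind its UAS binding sites, and the elav promoter supplies Gal4 to neurons. The libraries described here compare flies with such an elav-driven Chd1 transgene with wild-type flies, in RNA that the labels assign to the head.

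Of the 9 libraries of the series, the comparison takes the 3 libraries titled elav-Gal4>UAS-Chd1 and the 3 titled Chd1[WT/WT], and uses every gene in the files. The elav-Gal4>UAS-Chd1 libraries (here elav>Chd1) have the genotype entry Chd1-rescued, elavGal4>UAS-Chd1, and the Chd1[WT/WT] libraries the entry wildtype. All groups were virgin females aged 10 days, kept at 25 degrees, 60% humidity and 12 hours of light and 12 of dark. The remaining 3 libraries, titled Chd1[-/-] and entered as Chd1-deficient, entered the fit for its estimate of spread, and their values are given beside some results. The labels do not say outright whether elav>Chd1 flies also lack the endogenous Chd1 gene, and the series text speaks of a rescued genotype where the labels have wild type. elav-Gal4 is known as a driver for neurons, whereas the RNA is labelled as head, a mixture of tissues. In bulk RNA of this kind, fewer cells of a type and less RNA per cell cannot be told apart.

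Each file lists 16837 genes with their TPM, a relative transcript level corrected for length and scaled to a fixed total. The listed genes sum to 999685 to 999769 TPM in these 6 libraries, so the sequencing depth is unknown. Per library, 9159 to 9253 genes had 1 TPM or more in wild type and 9743 to 9787 in elav>Chd1. Wild-type replicate 3 lay apart from the other wild-type libraries, with a median absolute log2 difference of 0.154 and 0.143 from them, against 0.061 between replicates 1 and 2 and 0.053 to 0.070 among elav>Chd1 libraries. The opsin gene ninaE, a marker of the eye, was present, but so were abundant transcripts of the ovary, which go against the label head. In wild type ninaE stood at 819 to 889.6 TPM and the neuronal gene elav at 0.894 to 1.33 TPM. The muscle myosin gene Mhc, not a marker of the head, stood at 39.5 to 42.0 TPM. Together 39 eggshell genes held 25010 to 31172 TPM in wild-type and 35677 to 38363 TPM in elav>Chd1 libraries. The 50 Y-linked genes listed added up to 0.428 to 0.621 TPM in wild type and 0.133 to 0.208 TPM in elav>Chd1, against 7.33 to 9.95 TPM in Chd1-deficient libraries. The male dosage compensation RNA roX1 (lncRNA:roX1) stood at 1.69 to 2.31 and 1.87 to 2.03 TPM. Their part in the differences was not tested.

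Differences were taken on the log2(TPM + 0.5) scale as elav>Chd1 minus wild type, with limma and Benjamini-Hochberg adjustment over the 11094 genes that reached 1 TPM in 3 or more of the 9 libraries. A gene is called at an adjusted p under 0.05. The added 0.5 understates the change of low genes. Whether libraries of 1 genotype were made from different pools of flies is not in the labels, so each p rests on how far these libraries scatter, and that scatter may be technical.

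Chd1 itself was lower, not higher, in the libraries with the driven transgene. Its gene (FBgn0250786) lies on the minus strand of chromosome 2L, from 2979562 to 2987723 in the BDGP6.54 annotation. Its level was 103.8, 108 and 92.7 TPM in wild type and 63.7, 63.1 and 63.7 TPM in elav>Chd1. The groups did not overlap, and every elav>Chd1 value lay well below the lowest wild-type value. The fall came to 0.67 on the log2 scale (SE 0.06 and limma adjusted p = 5.9e-06), or 0.625 of the wild-type mean. In the Chd1-deficient libraries it stood at 18.2 to 20.2 TPM. The files give 1 value per gene, so transcripts of the transgene and of the endogenous gene cannot be told apart. The gene elav, whose promoter drives the transgene and whose product is an RNA-binding protein of neurons, stood at 1.33, 1.11 and 0.894 TPM in wild type and 1.94, 1.89 and 1.92 TPM in elav>Chd1, a log2 fold change of 0.59 (SE 0.11 and limma adjusted p = 6.4e-04). It was thus higher where Chd1 was lower, and both genes had separate groups of libraries.

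**Figure D1:**
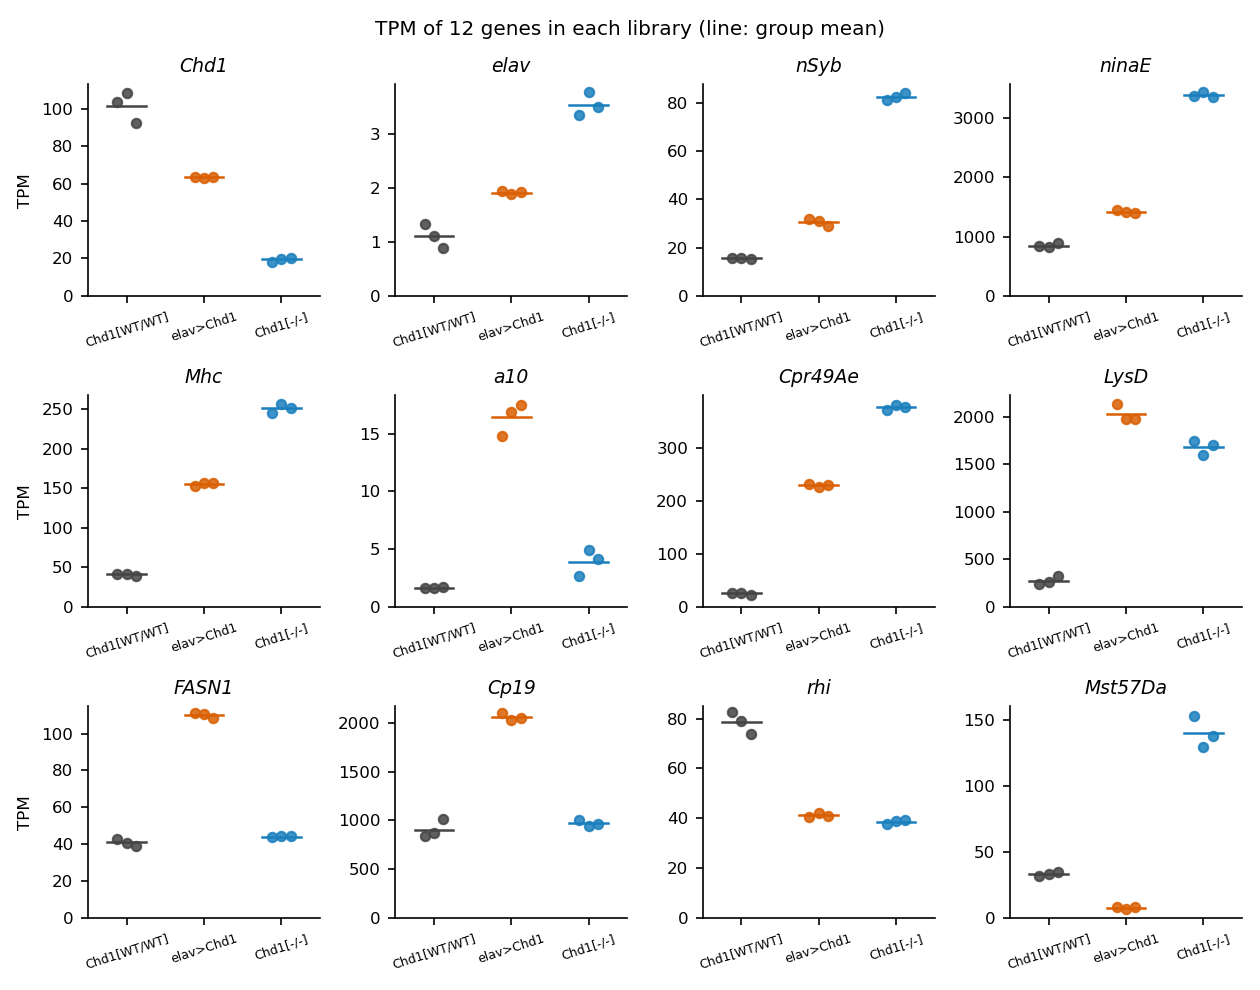
TPM of 12 genes in each of the 9 libraries (y axis, linear from 0; x axis, genotype as titled in the labels), with 1 point per library and a line at the group mean. Chd1 and rhi are lower in elav>Chd1 than in wild type, Mst57Da is lowest in elav>Chd1, and a10, LysD, FASN1 and Cp19 are higher in elav>Chd1 than in both other groups.

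Most genes differed between the groups. Of 11094 genes tested, limma called 8642, of which 3394 were higher in elav>Chd1 (30.6% of the tested genes) and 5248 lower (47.3%). Large differences leaned the other way: when the change also had to reach 1 on the log2 scale in either direction, there were 798 higher genes (7.19%) and 139 lower genes (1.25%). With the filter and fit on the 6 libraries alone, 9715 genes were tested, and 776 were higher and 105 lower by that much. The median log2 fold change of all tested genes was -0.15. Direction went with level. Among genes averaging 1 to 5 TPM over the 2 groups 67.9% were called higher and 8.54% lower, whereas among those of 20 to 100 TPM 11.7% were called higher and 74.6% lower. Above that, at 100 TPM or more, 20.2% were higher and 64.8% lower. The 1379 tested genes under 1 TPM in at least 4 of the 6 libraries passed the filter with the help of the Chd1-deficient libraries. Genes named here that were tested only because of those libraries include Hsp70Ab, Prosbeta4R2, Prosbeta5R1, repo, Trh, Rph, lncRNA:roX2, Mst36Fa and Mst36Fb. These 4 shares of all tested genes are the background for the counts of each gene group that follow. Lists share members, so their counts are not independent. Gad1, nSyb, para and nrv3, for example, are neuron markers and also belong to the transmitter, synaptic vesicle or ion channel lists.

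**Figure D2:**
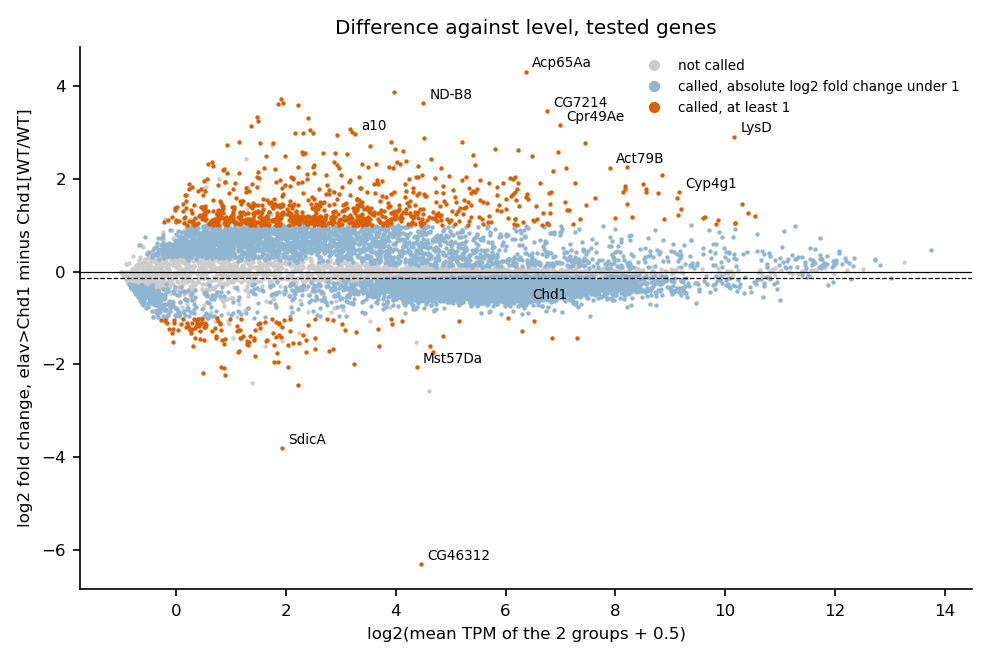
Log2 fold change of elav>Chd1 against wild type (y axis) by the log2 of the mean TPM of the 2 groups plus 0.5 (x axis), 1 point per tested gene. Called genes that changed by at least 1 (orange) are mostly higher, and the dense band of genes with intermediate levels lies below 0; the dashed line marks the median of -0.15.

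The large chromosome arms had similar shares of called genes. Of the tested genes 29.7% on the X, 30.7% on 2L, 32.2% on 2R, 29.0% on 3L and 30.9% on 3R were called higher, and 44.9% to 50.3% lower. The 139 genes lower by at least 1 on the log2 scale included 42 of 2041 on 2L (2.06%) and 11 of 1794 on the X (0.613%). Among RNA classes, small nucleolar RNAs, which guide the modification of ribosomal RNA, had 11 of 61 tested genes higher by at least 1 and 1 lower by as much. Annotated noncoding RNA genes had 48 of 418 higher by at least 1 (11.5%) and 6 lower, and protein-coding genes 737 of 10564 (6.98%) and 129.

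**Figure D3:**
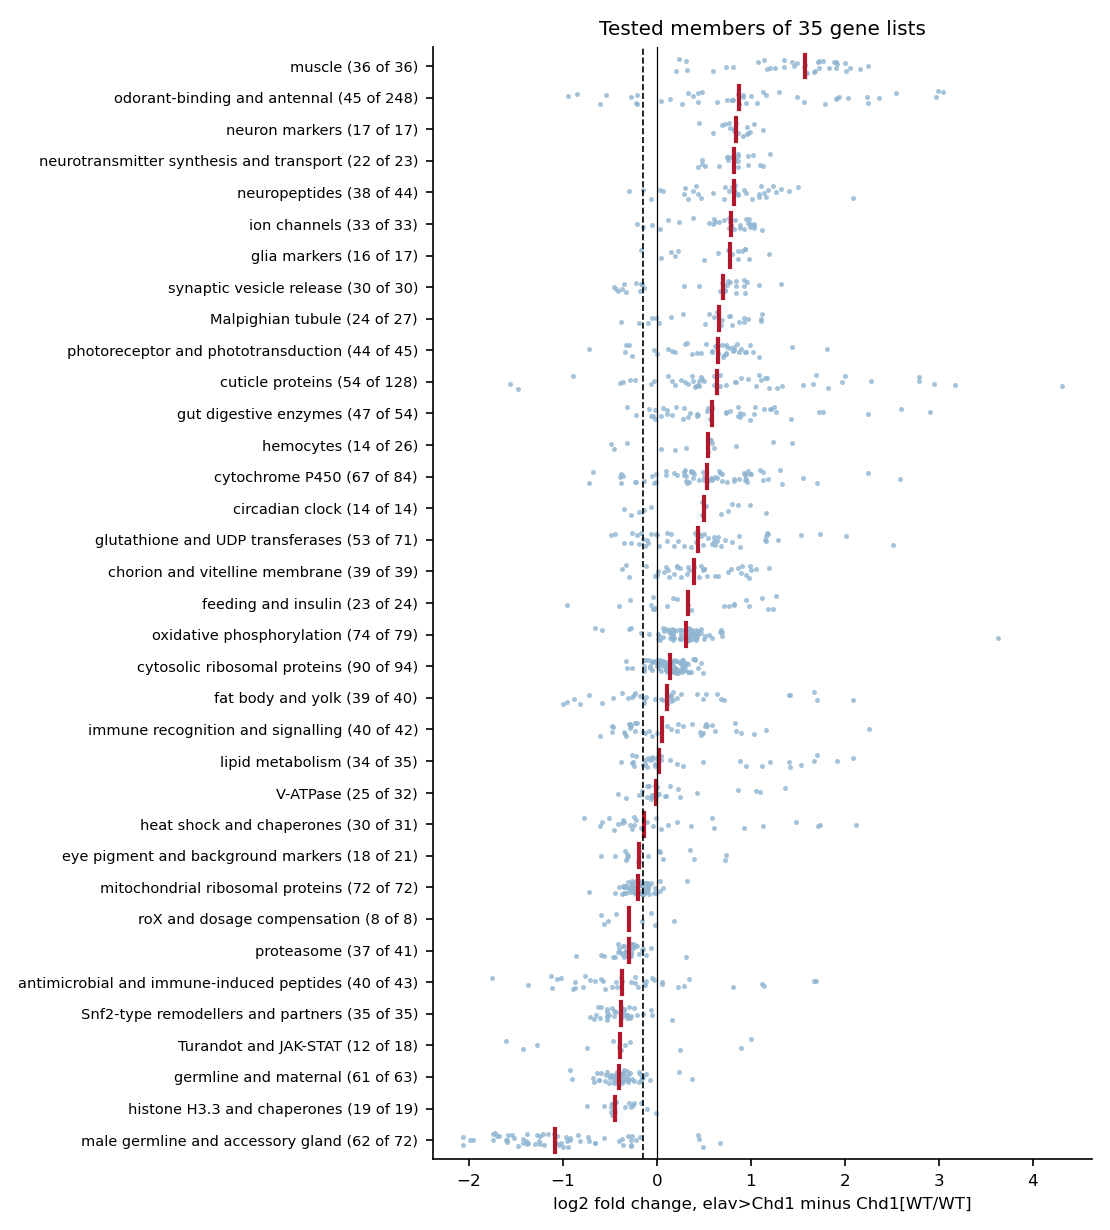
Log2 fold changes of the tested members (points) of 35 gene lists, ordered by their median (red bar); the label gives the members tested of those in the files. The solid line is 0 and the dashed line the median of all tested genes, -0.15; muscle has the highest median (1.57) and the male list the lowest (-1.08).

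Genes of the nervous system were higher in elav>Chd1. All 17 neuron markers in the files were called higher, with a median log2 fold change of 0.84 against -0.15 for all genes, but only 2 of them by at least 1. Low genes leaned higher in general. Of all tested genes averaging 1 to 5 TPM, 67.9% were called higher (median 0.60), and of those averaging 5 to 20 TPM, 46.4% (median 0.11). Their summed level was 103.8 to 119.5 TPM in wild type, 215.8 to 220.2 TPM in elav>Chd1 and 539.3 to 581.1 TPM in the Chd1-deficient libraries. The synaptobrevin nSyb, which drives the fusion of synaptic vesicles, stood at 15.6, 15.6 and 15.3 TPM in wild type and 31.9, 30.9 and 29.1 TPM in elav>Chd1, a log2 fold change of 0.96 (SE 0.04 and limma adjusted p = 5.1e-08). Every elav>Chd1 library lay above every wild-type library. Gad1, the enzyme that makes GABA, went from 7.31, 6.09 and 5.73 to 13.8, 15.9 and 14.0 TPM, and the calcium sensor of vesicle release Syt1 from 7.69, 7.30 and 6.39 to 12.9, 13.4 and 13.2 TPM. Choline acetyltransferase, ChAT, rose by 0.97 on the log2 scale and the sodium pump subunit nrv3 by 1.04. These are low levels for the most part: elav, brp (an active zone scaffold, 3.22 to 3.49 TPM) and ChAT (2.21 to 2.38 TPM) stayed under 4 TPM in elav>Chd1.

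The synaptic vesicle list split. Of its 30 members, all tested, 19 were higher and 11 were lower, at a median of 0.70. The 19 higher genes had the lower levels, with wild-type means from 0.476 TPM for Rph to 21.8 TPM for cpx (both picked for their values), and the 11 lower genes had wild-type means from 29.6 TPM for unc-13 to 159 TPM for Csp. The synaptotagmin gene Syt4 stood at 4.67, 4.72 and 3.50 TPM in wild type and 11.6, 10.9 and 11.8 TPM in elav>Chd1, a log2 fold change of 1.32 (SE 0.11 and limma adjusted p = 2.7e-06). The vesicle GTPase Rab3 rose by 0.94 and the calcium sensor Frq2 by 1.09. Syx1A, a plasma membrane SNARE, stood at 31.0, 31.3 and 27.8 TPM in wild type and 26.6, 26.3 and 26.2 TPM in elav>Chd1 and fell by 0.18. Named after their values were seen, the clathrin adaptor subunit AP-2alpha fell by 0.44, the vesicle chaperone Csp by 0.35, the clathrin assembly protein lap by 0.37 and unc-13, a priming factor, by 0.45.

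Ion channels were higher in 27 of 33 tested cases and lower in 1 (2 without wild-type replicate 3), with a median of 0.79. The voltage-gated sodium channel para stood at 3.19, 3.03 and 2.82 TPM in wild type and 6.56, 6.41 and 6.48 TPM in elav>Chd1, a log2 fold change of 0.99 (SE 0.07 and limma adjusted p = 1.2e-06). The Shaker potassium channel Sh rose by 1.03, the pacemaker channel Ih by 1.04 and the chloride channel ClC-a by 1.12. Genes of transmitter synthesis and transport were higher in all 22 tested of 23 cases (median 0.83). Dopa decarboxylase, Ddc, needed for dopamine and serotonin, stood at 5.89, 5.62 and 5.75 TPM and 14.2, 13.3 and 14.3 TPM, and the vesicular monoamine transporter Vmat rose by 1.09 and the transporter gene Eaat2 by 1.02. Tyrosine hydroxylase, ple, which starts dopamine synthesis, rose from 4.79, 5.06 and 4.12 to 6.49, 6.49 and 7.05 TPM (0.48), and the tryptophan hydroxylase gene Trh by 0.87.

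Neuropeptide genes, whose products are released as signals by neurons and endocrine cells, were higher in 30 of 38 tested cases and lower in 1, of 44 in the files, with a median of 0.82 and 13 higher by at least 1. Nplp3 had the largest difference on the log2(TPM + 0.5) scale, from 169.7, 166 and 192 TPM to 760.1, 739.7 and 741 TPM, a log2 fold change of 2.09 (SE 0.05 and limma adjusted p = 3.9e-10). The leucokinin gene Lk went from 5.17, 5.56 and 4.25 to 13.8, 15.3 and 15.8 TPM and stood at 11.7 to 13.7 TPM in the Chd1-deficient libraries. SIFa, a peptide of a few brain neurons, stood at 1.90, 1.37 and 1.11 TPM and 5.74, 4.77 and 3.59 TPM. Ptth, the gene of a brain hormone that acts on the steroid gland of larvae, was under 1 TPM in every wild-type library and rose by 1.32. Nplp2, at a far higher level than these, did not pass the test, with 1546, 1509.7 and 1627 TPM in wild type and 1658, 1590.4 and 1549.8 TPM in elav>Chd1 (log2 fold change 0.04, limma adjusted p = 0.41). The groups overlapped for Nplp2 and were separate for Nplp3, Lk and SIFa.

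Of 14 clock genes, 9 were higher and 3 lower (median 0.50), and without wild-type replicate 3 the lower genes were 5. Their summed level was 413.7 to 454.8 TPM in wild type and 427.0 to 430.4 TPM in elav>Chd1. Among all tested genes averaging 1 to 5 TPM 67.9% were called higher, and among those of 100 TPM or more 64.8% were lower. The clock repressor per stood at 1.43, 1.39 and 1.497 TPM in wild type and 3.33, 2.96 and 2.81 TPM in elav>Chd1, a log2 fold change of 0.86 (SE 0.09 and limma adjusted p = 1.6e-05). Its partner tim rose by 0.48, the blue light receptor cry by 0.99, the clock neuron peptide Pdf by 1.16 and its receptor Pdfr by 0.80. The activator cyc, named after its values were seen, was lower by a log2 fold change of -0.35 at 102 to 109 TPM against 132 to 136 TPM. Glia, the supporting cells of the nervous system, showed 13 of 16 tested markers higher and 1 lower (0 when wild-type replicate 1 or 2 or elav>Chd1 replicate 1 or 3 was left out), of 17 in the files (median 0.78). The glial glutamine synthetase Gs2 stood at 53.7, 53.2 and 52.9 TPM and 103.6, 100 and 96.6 TPM, and the glial transcription factor repo at 0.604, 0.655 and 0.518 and 0.965, 1.17 and 1.00 TPM. The sodium pump subunit nrv2 rose by 1.19, the trehalose transporter Tret1-1 by 0.98, the midline glia gene wrapper by 0.94 and the P450 gene Cyp4g15 by 0.94.

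Photoreceptor genes were higher in 35 of 44 tested cases and lower in 5, with a median of 0.65 and 4 higher by at least 1. The major opsin ninaE stood at 835, 819 and 889.6 TPM in wild type and 1440.2, 1414 and 1397 TPM in elav>Chd1, a log2 fold change of 0.74 (SE 0.03 and limma adjusted p = 4.2e-08). The light-response channel trp went from 20.3, 20.5 and 19.2 to 31.9, 31.7 and 31.6 TPM. Both had separate groups, and both stood higher still in the Chd1-deficient libraries, at 3354 to 3434 and 98.6 to 103.7 TPM. Among the largest rises were ninaD, a scavenger receptor for the carotenoid source of the chromophore (1.81), the ocellar opsin Rh2 (1.43), the photoreceptor myosin ninaC (1.09) and the visual G protein subunit Ggamma30A (1.02). Chosen after their values were seen, the phospholipase norpA of the light response did not pass the test (24.9 to 28.2 against 28.9 to 29.7 TPM) and the kinase gene Gprk1 fell by 0.72. Of 18 tested eye pigment genes, of 21 in the files, 11 were lower and 4 higher, with a median (-0.19) close to that of all genes (-0.15). The pigment transporter w, a usual marker gene of transgenes, fell from 14.6, 13.7 and 13.4 to 9.44, 9.86 and 11.1 TPM by 0.44 on the log2 scale (SE 0.08 and limma adjusted p = 6.5e-04), and stood at 1.70 to 1.996 TPM in the Chd1-deficient libraries. Its partner st rose by 0.73, the vacuolar sorting gene lt fell by 0.59, and the pteridine enzyme se, at 2.73, 3.90 and 4.22 and 5.02, 4.74 and 4.34 TPM, rose by 0.36 (limma adjusted p = 0.034, 0.0097 to 0.11 over the alternatives). The call of se was lost without wild-type replicate 1 (log2 fold change 0.19, limma adjusted p = 0.11), without elav>Chd1 replicate 1 or 2 (log2 fold changes 0.31 and 0.35), and with no filter on low values (limma adjusted p = 0.057).

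Genes of the antenna, the fly's main organ of smell, were mostly higher in elav>Chd1. Of the 248 odorant receptor, odorant-binding and antennal genes in the files only 45 were tested, the others staying under the filter, and 35 of the 45 were higher and 7 lower, 18 higher by at least 1 (median 0.88); without wild-type replicate 1 the lower genes were 4. Among the 40 that pass the same filter on the 6 libraries alone, 32 were higher and 5 lower (median 0.90). The short-chain dehydrogenase gene antdh, named for its expression in the antenna, stood at 0.691, 1.14 and 0.528 TPM in wild type and 9.39, 9.05 and 10.2 TPM in elav>Chd1, a log2 fold change of 2.99 (SE 0.16 and limma adjusted p = 1.5e-07). The antennal protein gene a10 stood at 1.65, 1.60 and 1.70 TPM and 14.8, 16.9 and 17.5 TPM, a log2 fold change of 2.97 (SE 0.16 and limma adjusted p = 1.7e-07). In both genes the lowest elav>Chd1 library lay several times above the highest wild-type library, and the Chd1-deficient libraries stood between (no test was run of elav>Chd1 against them here), at 2.14 to 2.78 and 2.70 to 4.88 TPM. The odorant-binding protein genes Obp28a and Obp83a, which encode carriers in the fluid of olfactory hairs, stood at 0, 1.13 and 1.38 and 2.32, 1.25 and 1.51 TPM in wild type and at 8.74, 9.47 and 8.94 and 12.7, 13.6 and 10.2 TPM in elav>Chd1. Obp28a rose by 3.05 (2.45 without wild-type replicate 1) and Obp83a by 2.55. The pheromone-binding protein gene lush stood at lower levels, 0.628, 0.436 and 0.542 and 1.05, 1.54 and 2.28 TPM (1.00).

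Obp83b, Os-C, Obp19a, Ir76a and Obp51a are further members, chosen after their values were seen. Obp83b stood at 1.70 to 2.22 TPM in wild type, 10.0 to 13.01 TPM in elav>Chd1 and 1.23 to 2.72 TPM in the Chd1-deficient libraries. Os-C, expressed in olfactory hairs, stood at 1.72 to 3.26, 12.0 to 12.8 and 2.17 to 3.09 TPM in the same order, and Obp19a at 0.699 to 1.94, 5.92 to 7.87 and 1.54 to 2.07 TPM. For these 3 genes elav>Chd1 was thus apart from both other groups. Obp56e, in contrast, is a defining gene of the list and was named whatever its values. It stood at 4.85, 4.25 and 5.30 TPM in wild type, 19.8, 16.4 and 22.6 TPM in elav>Chd1 and 138 to 153 TPM in Chd1-deficient libraries, rising by 1.92 against wild type. Among the lower members, the ionotropic receptor gene Ir76a fell by 0.95 and Obp51a by 0.85.

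Muscle genes had the highest median of all lists. All 36 members were tested and all 36 were higher, 29 of them by at least 1, with a median of 1.57 against -0.15 for all genes. Their summed level was 2881 to 3056 TPM in wild type, 7026 to 7075 TPM in elav>Chd1 and 9410 to 9603 TPM in Chd1-deficient libraries. Mhc, the muscle myosin heavy chain, stood at 42.0, 41.5 and 39.5 TPM in wild type and 153, 157 and 157 TPM in elav>Chd1, a log2 fold change of 1.91 (SE 0.03 and limma adjusted p = 6.7e-11). The actin gene Act79B stood at 85.7, 84.8 and 78.0 TPM and 398, 384 and 399 TPM, a log2 fold change of 2.24 (SE 0.04 and limma adjusted p = 6.7e-11). The 3 libraries of a group lay close together and the groups far apart in both genes. Act87E rose by 2.16, paramyosin, Prm, by 2.01 and the troponin C gene TpnC4 by 2.05. Act88F, a flight muscle actin and thus of the thorax, rose less, from 32.0, 31.6 and 32.4 to 56.1, 55.3 and 58.2 TPM (0.81), and stood at 313 to 331 TPM in the Chd1-deficient libraries. The smallest rises were those of tropomyosin 1, Tm1 (0.23), and the glycerol phosphate dehydrogenase Gpdh1 (0.21), genes also used outside muscle, named after their values were seen.

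**Figure D4:**
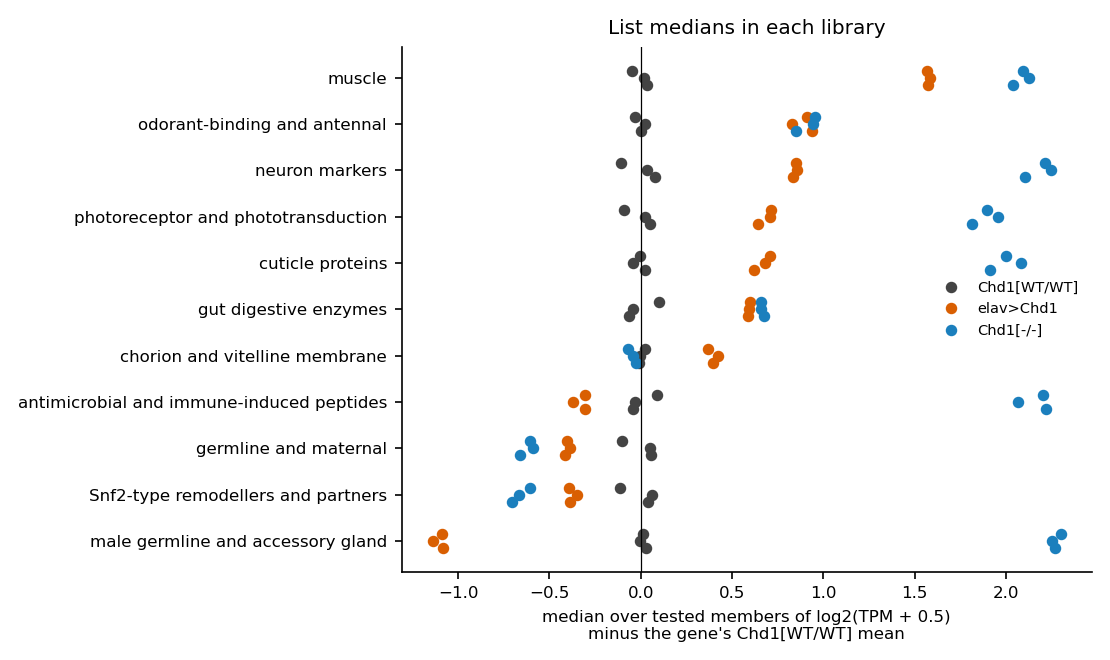
Median over the tested members of a list of log2(TPM + 0.5) minus the gene's wild-type mean (x axis), 1 point per library, for 11 lists. The elav>Chd1 libraries (orange) lie between wild type and Chd1-deficient for muscle, neurons, photoreceptors and cuticle, and on the other side of wild type from the Chd1-deficient libraries for immune peptides and the male list.

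Cuticle protein genes were mostly higher. They held the largest log2(TPM + 0.5) rise among called genes of at least 5 TPM whose groups did not overlap. That order depends on the added 0.5 for genes near 0. Of 128 in the files 54 were tested, and 34 were higher and 4 lower, 20 and 2 of them by at least 1, with a median of 0.64. On the 6 libraries alone 35 pass the filter, of which 29 were higher and 4 lower (median 1.09). Acp65Aa, an adult cuticle protein gene, stood at 4.77, 7.99 and 10.6 TPM in wild type and 165, 149 and 157 TPM in elav>Chd1, a log2 fold change of 4.31 (SE 0.20 and limma adjusted p = 5.7e-08). Cpr49Ae went from 26.7, 26.5 and 22.4 to 233, 227 and 229.7 TPM, a log2 fold change of 3.17, and Cpr92F from 3.303, 3.19 and 3.44 to 25.8, 26.7 and 24.9 TPM. Groups were separate for all 3, and the Chd1-deficient libraries stood above both, at 386 to 406, 373 to 382 and 103 to 107 TPM. Cpr47Ea rose by 2.95. Cpr65Ea and TwdlF, 2 cuticle genes chosen after their values were seen, stood at 0 to 0.16 and 0 to 0.146 TPM in wild type, 2.47 to 4.64 and 2.09 to 2.19 TPM in elav>Chd1 and 0 to 0.448 and 0 to 0.248 TPM in Chd1-deficient libraries. CG7214, an uncharacterised gene also among the 12 largest rises, went from 17.2, 16.9 and 18.6 to 209.9, 190.1 and 194 TPM (3.46).

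Genes of the gut were higher too. Among digestive enzymes 35 of 47 tested of 54 were higher and 2 lower, 13 higher by at least 1 (median 0.59), and their summed level was 6011 to 6893 TPM in wild type and 12929 to 13407 TPM in elav>Chd1. The digestive lysozyme LysD stood at 235, 257 and 322 TPM and 2127, 1978 and 1978 TPM, a log2 fold change of 2.91 (SE 0.09 and limma adjusted p = 3.9e-09). LysB stood at 91.5, 96.5 and 119.5 TPM and 505, 479 and 475 TPM (2.25). These lysozymes are near-identical neighbours, so how reads were split between them is uncertain, although both had separate groups. The trypsin gene epsilonTry rose by 1.77 and the serine protease Jon44E by 2.60, while the protease Jon99Ci fell from 34.8, 38.2 and 33.4 to 27.7, 27.4 and 29.6 TPM (-0.32) and the amylase Amy-p, also one of a pair of close copies, rose by 0.20. The Malpighian tubules, the fly's kidneys, showed 18 of 24 tested of 27 genes higher and 1 lower (median 0.66). Without wild-type replicate 3 the lower genes were 4. Uro, the urate oxidase made in the tubules, stood at 10.0, 9.90 and 10.4 TPM and 15.4, 16.1 and 16.6 TPM (0.64), the phosphatase Alp4 rose by 1.11, the transporter ine by 1.11 and the potassium channels Irk2 and Irk3 by 0.97 and 0.55.

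Detoxification enzymes were mostly higher. Of 67 tested cytochrome P450 genes, of 84 in the files, 50 were higher and 8 lower (median 0.54). Cyp6a2, an inducible P450 studied for insecticide resistance, stood at 1.30, 1.63 and 1.40 TPM and 8.90, 7.10 and 10.4 TPM, a log2 fold change of 2.25 (SE 0.12 and limma adjusted p = 1.9e-07). Cyp4p2 rose by 2.59 and Cyp4e3 by 1.55. Among glutathione and UDP-glycosyl transferases 33 of 53 tested of 71 were higher and 8 lower (median 0.44). GstE1 stood at 11.2, 12.0 and 13.01 TPM in wild type and 77.2, 68.0 and 69.1 TPM in elav>Chd1 (2.51), and GstD1, which defends against insecticides and oxidative damage, at 459, 471 and 509.8 and 1081, 1090.5 and 1054 TPM (1.16). GstE5, GstE7 and GstE4 rose by 2.02, 1.53 and 1.74. All 5 transferases had libraries that did not overlap.

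Fat body and lipid genes moved in both directions. Fat body and yolk genes were higher in 16 and lower in 14 of 39 tested cases (median 0.11), and lipid metabolism genes higher in 15 and lower in 9 of 34 (median 0.02). On the 6 libraries alone 37 fat body and yolk genes pass the filter, of which 16 were higher and 11 lower (median 0.14). Among the higher genes were all 3 fatty acid synthase genes (FASN1, FASN2 and, named after its values were seen, FASN3 with 1.40). The fatty acid synthase gene FASN1 stood at 42.8, 40.8 and 39.1 TPM in wild type and 111, 111 and 109 TPM in elav>Chd1, a log2 fold change of 1.42 (SE 0.04 and limma adjusted p = 1.1e-09). Cyp4g1, the P450 that makes cuticular hydrocarbons in the oenocytes, stood at 269.5, 271 and 263 TPM and 875, 876 and 879.7 TPM (1.71). The lipid droplet protein gene Lsd-1 rose by 1.68, the desaturase Fad2, which makes female hydrocarbons, by 1.92, and FASN2, a synthase of the same cells, by 2.09. In these 5 genes elav>Chd1 stood above the Chd1-deficient libraries as well, which held 43.8 to 44.4 TPM of FASN1, 582 to 622 of Cyp4g1, 41.7 to 43.6 of Lsd-1, 61.3 to 64.3 of Fad2 and 5.06 to 5.58 of FASN2. The elongase eloF of female hydrocarbons, named after its values were seen, had the same order, at 17.5 to 20.8 TPM in wild type, 54.4 to 57.0 in elav>Chd1 and 22.8 to 24.4 in Chd1-deficient libraries. The lower genes had smaller changes: bmm, a lipase that frees stored fat, fell from 72.2, 69.6 and 63.9 to 59.1, 56.4 and 56.0 TPM (-0.26), and Hsl, a further lipase chosen after its values were seen, fell by 0.26.

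The fat body genes named here moved both ways. The larval serum protein gene Lsp2 stood at 100.3, 102 and 106 TPM in wild type and 63.7, 61.2 and 62.2 TPM in elav>Chd1, a log2 fold change of -0.72 (SE 0.03 and limma adjusted p = 6.6e-08). The feeding-related peptide gene fit, which is induced by protein meals in females, and transferrin, Tsf1, both picked once their values had been seen, fell by 0.95 and 0.82. The yolk protein gene Yp1 rose a little, from 6828, 6666 and 7004 to 7686, 7470.4 and 7390.5 TPM (0.14). Genes of feeding and insulin signalling were higher in 14 and lower in 3 of 23 tested of 24 cases (median 0.33). Ilp6, the insulin-like peptide of the fat body, stood at 6.31, 5.37 and 7.34 TPM and 14.6, 17.8 and 15.5 TPM (1.27), and Ilp2, that of brain cells, rose by 0.82. The adipokinetic hormone gene Akh and its receptor gene AkhR rose by 1.24 and 1.12, and sug, a sugar-responsive transcription factor, by 1.18.

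Immune peptide genes went both ways. Of 40 tested antimicrobial and immune-induced peptide genes, of 43 in the files, 23 were lower and 5 higher, 6 and 4 of them by at least 1, with a median of -0.37, against 47.3% lower among all tested genes. On the 6 libraries alone 35 pass the filter, of which 19 were lower and 5 higher. Their summed level was 4518 to 5143 TPM in wild type and 4779 to 4827 TPM in elav>Chd1, against 15737 to 16961 TPM in the Chd1-deficient libraries. DptA, a diptericin against Gram-negative bacteria, stood at 44.9, 47.3 and 50.9 TPM in wild type and 24.6, 21.8 and 21.2 TPM in elav>Chd1, a log2 fold change of -1.07 (SE 0.06 and limma adjusted p = 3.0e-07). The cecropin CecC went from 3.88, 4.74 and 5.69 to 1.40, 1.83 and 1.37 TPM and Anp, the andropin of the male ejaculatory duct, from 5.85, 2.81 and 6.604 to 1.23, 0.803 and 1.22 TPM. The defensin Def went the other way, from 17.2, 21.9 and 18.4 to 57.7, 67.8 and 63.5 TPM (1.70), as did the drosomycin-like Drsl5 (1.68). Both directions therefore stood within 1 list, with separate groups in all 5 of these genes. Drosomycin itself, Drs, chosen after its values were seen, stood at 556 to 645 TPM in wild type and 1231 to 1323 TPM in elav>Chd1 (1.12). AttA, an attacin, did not pass the test, at 11.03, 11.7 and 10.2 and 10.1, 10.3 and 9.83 TPM (limma adjusted p = 0.08, 0.0064 to 0.28 over the alternatives), although without wild-type replicate 3 it was lower (log2 fold change -0.17).

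Receptors and signalling proteins of the immune response were divided, with 18 of 40 tested of 42 higher and 16 lower (median 0.05, and -0.15 among genes of at least 10 TPM). The NF-kappaB factor Rel stood at 27.5, 27.9 and 26.0 TPM and 30.6, 32.7 and 32.2 TPM (0.23), PGRP-SA, a sensor of Gram-positive bacteria, rose by 0.28 and PGRP-LA by 1.04. The proteases grass and Hayan rose by 1.16 and 0.90. PGRP-SC1b, an enzyme that cleaves peptidoglycan and a near-identical copy of its neighbour PGRP-SC1a, had the largest rise of the list (2.26). Stress peptides of the Turandot family and JAK-STAT genes were lower in 9 of 12 tested cases and higher in 2, of 18 in the files (median -0.39). TotA stood at 173, 171 and 158 TPM and 59.8, 59.3 and 67.5 TPM, a log2 fold change of -1.42 (SE 0.06 and limma adjusted p = 3.4e-08), and TotC and TotM fell by 1.28 and 1.61, while the feedback inhibitor Socs36E rose by 1.01. Blood cell genes were higher in 9 and lower in 3 of 14 tested of 26 cases (median 0.55). Among all tested genes averaging 1 to 5 TPM, 67.9% were called higher (median 0.60). The blood cell list summed to 344.9 to 387.6 TPM in wild type and 336.5 to 359.6 TPM in elav>Chd1. PPO2, a prophenoloxidase of crystal cells, stood at 1.01, 1.199 and 1.04 TPM and 4.05, 3.84 and 3.53 TPM (1.44), and PPO1 rose by 1.24, the secreted protein gene NimB2 by 0.85 and the clotting gene fon by 0.61. The markers Hml and NimC1 were under the filter, at 0.104 to 0.17 and 0.0896 to 0.133 TPM in wild type and 0.526 to 0.78 and 0.344 to 0.602 TPM in elav>Chd1.

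Heat shock genes and chaperones were also split, with 10 of 30 tested of 31 higher and 14 lower (median -0.13). This lay near the shares of all tested genes, 30.6% higher and 47.3% lower (median -0.15). On the 6 libraries alone 25 pass the filter, of which 8 were higher and 12 lower. The small heat shock protein gene Hsp26 fell from 2101, 2083 and 2022 to 1733, 1699 and 1738 TPM by 0.26 on the log2 scale (SE 0.03 and limma adjusted p = 1.7e-05). The chaperone genes CG7409 and Hsc70-1 rose by 1.73 and 1.72, and CG4461, a small heat shock gene, from 24.4, 27.0 and 27.2 to 74.9, 72.2 and 74.5 TPM (1.48). The Hsp70 genes are near-identical copies and their split is uncertain. Hsp70Aa stood at 35.3, 37.2 and 33.1 TPM and 26.4, 29.5 and 23.4 TPM (limma adjusted p = 0.012, 0.0014 to 0.05 over the alternatives and not called without elav>Chd1 replicate 3). Hsp70Ab was listed at 0 in every wild-type library, and at 2.97, 0 and 5.47 TPM in elav>Chd1, and its call was lost without elav>Chd1 replicate 1 or 3 (limma adjusted p = 0.07 and 0.076, and 2.8e-05 to 0.076 over the alternatives in which it was tested). It stood at 13.3 to 27.3 TPM in Chd1-deficient libraries, through which it passed the filter, and was not tested on the 6 libraries alone.

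In the ovarian transcripts, eggshell genes were higher and germline genes lower. Of 39 chorion and vitelline membrane genes, all tested, 29 were higher and 3 lower, 3 higher by at least 1 (median 0.39). The chorion genes Cp19, Cp18 and Cp15, which are made by follicle cells late in egg formation, all rose. Cp19 stood at 837, 869 and 1009 TPM in wild type and 2105, 2026 and 2051 TPM in elav>Chd1, a log2 fold change of 1.19 (SE 0.06 and limma adjusted p = 9.8e-08), and Cp18 rose by 1.06 and Cp15 by 0.99. Cp36, a chorion gene made earlier, rose by 0.44, from 1360.5, 1383 and 1382 to 1839, 1884 and 1892 TPM, and the vitelline membrane gene Vm26Aa by 0.24. The order of the 3 groups differed between them: the Chd1-deficient libraries held 942 to 1007 TPM of Cp19, 671 to 679 of Cp36 and 8425 to 9062 of Vm26Aa. CG13084, of unknown function, rose by 1.01, and Cp7Fc, chosen after its values were seen, fell by 0.37.

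Of 61 tested germline and maternal genes, of 63 in the files, 56 were lower and 1 higher, and none was lower by as much as 1 (median -0.41). Of all tested genes 47.3% were lower. The share was 74.6% among those of 20 to 100 TPM (median -0.28) and 64.8% at 100 TPM or more (median -0.21). The 2 largest falls of the germline list were in the piRNA pathway, which silences transposons in the germline. The HP1 relative rhi, which marks piRNA clusters, stood at 82.6, 79.1 and 73.7 TPM in wild type and 40.5, 42.2 and 41.0 TPM in elav>Chd1, a log2 fold change of -0.92 (SE 0.05 and limma adjusted p = 1.1e-07). AGO3, a Piwi protein of the amplification cycle, stood at 122, 117 and 93.9 TPM and 56.7, 61.0 and 59.2 TPM, and fell by 0.90. For both genes the groups were separate and elav>Chd1 stood near the Chd1-deficient libraries, which held 37.5 to 39.4 and 43.2 to 50.1 TPM. The export factor nxf2 fell by 0.67, the meiotic Polo inhibitor mtrm by 0.67 and the posterior determinant nos by 0.42. The pole plasm organiser osk fell by 0.17, at 668, 658 and 573 and 544, 577 and 568 TPM, with groups that overlapped (limma adjusted p = 0.019), and its call was lost without wild-type replicate 1 or 2 or elav>Chd1 replicate 1 (limma adjusted p = 0.066 to 0.071, and 0.00018 to 0.071 over all alternatives). The maternal thioredoxin dhd, chosen after its values were seen, stood at 5106 to 5475 TPM in wild type, 4579.5 to 4826 TPM in elav>Chd1 and 878 to 950.2 TPM in the Chd1-deficient libraries.

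Genes of the male reproductive tract were lower in libraries that are all labelled female. Of 62 tested genes, of 72 in the files, 47 were lower and 4 higher, with 34 lower by at least 1 and none higher by as much (median -1.08). On the 6 libraries alone 42 pass, of which 36 were lower and 2 higher (median -1.37). Mst57Da, an accessory gland peptide gene and one of a cluster of close copies, stood at 31.6, 33.5 and 34.3 TPM in wild type and 8.002, 6.80 and 7.84 TPM in elav>Chd1, a log2 fold change of -2.07 (SE 0.07 and limma adjusted p = 9.5e-09). The seminal fluid gene Sfp60F went from 17.7, 13.2 and 13.3 to 3.72, 3.10 and 3.11 TPM, and the sperm tail gene Mst84Da from 5.16, 4.34 and 4.51 to 1.63, 1.32 and 0.793 TPM. Wild-type libraries were the higher ones throughout, and the Chd1-deficient libraries higher again, at 129 to 153, 86.2 to 88.97 and 63.5 to 71.6 TPM. The list summed to 351.0 to 370.3 TPM in wild type, 158.4 to 164.3 TPM in elav>Chd1 and 1827 to 1906 TPM in Chd1-deficient libraries. Further accessory gland and seminal fluid genes among the 12 largest falls were Acp53Ea (-2.07), Mst57Db (-1.74), Acp53C14b (-1.74), Sfp87B (-1.70) and Acp62F (-1.68), and Acp33A and Acp26Aa fell by 1.96 and 1.72. Neither roX1 nor roX2 (lncRNA:roX2), the RNAs of the male dosage compensation complex, passed the test. The complex's protein genes msl-1, msl-3 and mof and the X-binding factor Clamp fell by 0.60, 0.56, 0.52 and 0.43. So 4 of the 8 members of the list were lower and none higher (median -0.29), and 1 was higher with median-ratio scaling. This share lay near the 47.3% lower among all tested genes. Among tested genes of 20 to 100 TPM 74.6% were lower, and among those of 100 TPM or more 64.8%.

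Chromatin remodelling genes were lower together with Chd1. Of 35 Snf2-type remodellers and partners, all tested, 31 were lower and none higher, Chd1 among them, with a median of -0.38 and none lower by as much as 1. With median-ratio scaling 1 was higher. The DNA-dependent ATPase Mi-2, a relative of Chd1, stood at 81.1, 82.4 and 71.3 TPM in wild type and 60.3, 61.3 and 58.5 TPM in elav>Chd1, a log2 fold change of -0.38 (SE 0.06 and limma adjusted p = 1.8e-04). The transcription termination ATPase lds fell by 0.71, more than Chd1, the Snf2-type ATPase Etl1 by 0.65 and the NURF subunit E(bx) by 0.62. Of 19 genes of histone H3.3 and its chaperones, 18 were lower and none was higher (median -0.44). Hira, the H3.3 chaperone that works with Chd1 at fertilisation, stood at 50.5, 48.9 and 44.7 TPM and 33.1, 35.04 and 34.9 TPM, a log2 fold change of -0.48 (SE 0.05 and limma adjusted p = 2.4e-05), and its partner yem fell by 0.49. The groups were separate for Mi-2, Hira and yem. The H3.3 gene His3.3A fell by 0.28, the centromere assembly factor cal1 by 0.56 and the CAF-1 subunit Caf1-105 by 0.48. The share of lower genes among all tested genes was 47.3%, and 74.6% among those of 20 to 100 TPM.

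Protein turnover and translation genes changed by small amounts. Proteasome genes were lower in 34 of 37 tested of 41 cases and higher in none (median -0.30; 1 higher with median-ratio scaling or without elav>Chd1 replicate 2). On the 6 libraries alone 33 pass the filter, of which 31 were lower and none higher. The regulatory subunit Rpn1 stood at 160.4, 165 and 155 TPM and 125, 124 and 123 TPM (-0.37), and Rpn7 and the deubiquitinase Usp14 fell by 0.45 and 0.47. The testis forms Prosbeta4R2 and Prosbeta5R1, called lower, were under 1 TPM in all 6 libraries and passed the filter through the Chd1-deficient libraries, at 2.66 to 2.91 and 1.88 to 2.196 TPM. Prosalpha1 stood at 5.78, 5.94 and 0 TPM in wild type and 0, 2.78 and 3.11 TPM in elav>Chd1, values that vary widely between replicates, and did not pass the test. It has a near-identical copy, so its value is uncertain. Mitochondrial ribosomal protein genes were lower for 51 of 72 members and higher for 1 (0 to 2 when a library was left out; median -0.19), with the largest fall in mRpS5, from 413, 393 and 352 to 227, 235 and 239 TPM (-0.72). Of all tested genes, 74.6% were lower at 20 to 100 TPM (median -0.28) and 64.8% at 100 TPM or more (median -0.21). The mitochondrial list thus lay near the share of genes at such levels. The subunit genes mRpL10, mRpL39 and mRpS18A fell by 0.45, 0.40 and 0.37, mRpS2 by 0.19 and mRpL12 by 0.11, the last of which did not pass the test with median-ratio scaling (log2 fold change -0.05, limma adjusted p = 0.29, the highest over the alternatives, which began at 0.0074). Cytosolic ribosomal protein genes leaned higher, with 59 of 90 tested of 94 higher and 7 lower (median 0.14; 3 lower with median-ratio scaling). RpS2 stood at 2553, 2640.4 and 2733 TPM and 3644, 3673 and 3789 TPM (0.49), RpL41, RpS14a, RpS13 and RpL32 rose by 0.47, 0.44, 0.41 and 0.33, and RpS3 did not pass the test. For RpL32, a common reference gene, wild-type replicate 3 stood at 3800 TPM against 2990 and 3059 TPM in the others.

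Respiratory chain genes were higher in 61 of 74 tested of 79 cases and lower in 5 (2 to 4 when a library was left out), with a median of 0.31. On the 6 libraries alone 70 pass the filter, of which 61 were higher and 2 lower (median 0.32). The ATP synthase alpha subunit blw stood at 906, 925 and 899 TPM in wild type and 1138, 1116 and 1133 TPM in elav>Chd1, a log2 fold change of 0.31 (SE 0.02 and limma adjusted p = 2.3e-06). Its partner ATPsynbeta did not pass the test, at 1060.0, 1053 and 1001 and 1013, 1056 and 1066 TPM. The complex I gene ND-B8 stood apart from the list, at 2.13, 3.54 and 3.05 TPM and 45.2, 37.5 and 41.2 TPM, a log2 fold change of 3.64 (SE 0.15 and limma adjusted p = 1.9e-08), with 29.1 to 36.1 TPM in the Chd1-deficient libraries. Smaller rises were seen for ND-B12 of complex I (0.69), cype of cytochrome oxidase (0.69) and ox of the cytochrome bc1 complex (0.69). Proton pump (V-ATPase) genes were higher in 9 and lower in 3 of 25 tested of 32 cases (median -0.01), and the lower genes were 9 without wild-type replicate 3. The higher ones named here are low in level, Vha68-1 (16.8 to 17.4 TPM in elav>Chd1, 1.10), Vha36-3 (0.87), VhaM9.7-a (1.06) and Vha100-4 (1.37), while Vha55 did not pass the test. The neuronal subunit Vha100-1 fell from 60.1, 56.9 and 51.4 to 39.8, 43.0 and 43.5 TPM (-0.41).

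Genes around Chd1 on chromosome 2L differed by side. Of 29 genes in the files, Chd1 left out, whose start lies within 100000 bases of that of Chd1, 25 were tested, and 13 were higher and 5 lower. Of all tested genes 30.6% were higher and 47.3% lower. The split by side, made after the values were seen, put all 5 lower genes at lower coordinates, where 7 were tested (median -0.39). These 5 had wild-type means of 46.2 to 159 TPM. Among all tested genes of 20 to 100 TPM 74.6% were lower, and among those of 100 TPM or more 64.8%. At higher coordinates 12 of 18 tested genes were higher and none lower (median 0.36). The nearest of them, Bem46, chosen after its values were seen, starts 393 bases from Chd1 on the other strand and stood at 21.4, 21.3 and 20.02 TPM in wild type, 28.6, 30.6 and 29.4 TPM in elav>Chd1 and 16.8 to 18.2 TPM in Chd1-deficient libraries (0.49). The farthest are the fatty acid synthase genes FASN2 (2L, 3043947 to 3056143) and FASN1 (2L, 3056598 to 3068177), described above. CG17224 and CG17219 rose by 1.22 and 1.06, and CG17265, under 2 TPM in all libraries, by 0.70. On the other side Rbp9, a neuronal RNA-binding protein of the Elav family, stood at 12.1, 12.0 and 11.2 TPM and 22.9, 23.6 and 23.6 TPM, a log2 fold change of 0.96 (SE 0.06 and limma adjusted p = 3.1e-07). It was the exception at lower coordinates, where CG9641, chosen after its values were seen, had the largest fall (-0.59).

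**Figure D5:**
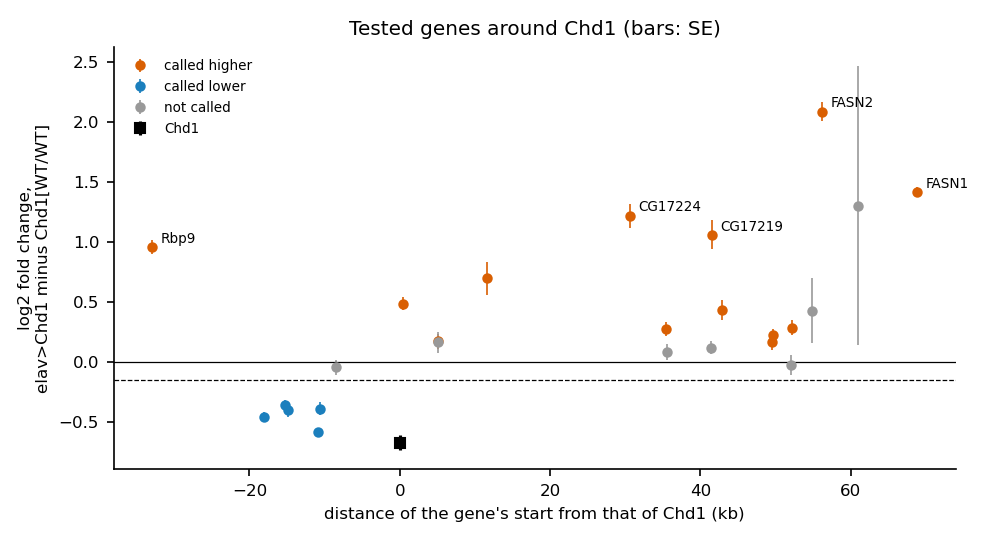
Log2 fold change (points) and SE (bars) of the 25 tested genes around Chd1, by the distance of their start from that of Chd1 in kb; the square is Chd1 (-0.67) and the dashed line the median of all tested genes, -0.15. Called genes to the left are lower except Rbp9, and called genes to the right are all higher.

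The remaining named genes with the largest changes are mostly uncharacterised. CG46312 was listed at 58.5, 50.7 and 20.6 TPM in wild type and at 0 in all 3 elav>Chd1 and all 3 Chd1-deficient libraries. SdicA, one of a tandem cluster of near-identical sperm dynein genes, was listed at 5.84, 8.76 and 5.38 TPM in wild type and at 0 in the same 6 libraries. No gene showed the reverse, 0 in all wild-type and at least 5 TPM in all elav>Chd1 libraries. CG31683, at 0, 0 and 0.109 TPM in wild type, stood at 6.07, 6.25 and 7.27 TPM in elav>Chd1 and 0 to 0.216 TPM in Chd1-deficient libraries. CG18853 stood at 1.82, 0 and 4.61 TPM, 16.6, 13.3 and 14.8 TPM and 0 to 0.367 TPM in the same order, with a log2 fold change of 3.08 (2.16 without wild-type replicate 2 and 3.83 without replicate 3). For both genes elav>Chd1 was therefore above both other groups. CG14406 rose by 3.31 and the noncoding lncRNA:CR44645 by 3.59. The values of 3 noncoding RNAs varied widely: snRNA:U4:39B and sisRNA:CR46358 were listed at 0 in every wild-type library and at 8.65, 7.53 and 2.68 and 3.41, 4.30 and 12.5 TPM in elav>Chd1, and asRNA:CR45818 at 0 in wild-type replicates 1 and 2 and 18.3 TPM in replicate 3, against 23.2, 28.9 and 21.1 TPM in elav>Chd1. Its log2 fold change of 3.88 was 3.01 without replicate 1 or 2 and 5.63 without replicate 3. Among the falls, CG42852 went from 3.78, 9.38 and 8.37 to 1.70, 1.62 and 0 TPM (-2.44, and -1.74 without elav>Chd1 replicate 3) and CG31226 from 4.82, 5.67 and 5.20 to 1.16, 1.12 and 0.673 TPM (-1.96).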

How the data were processed

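RNA of fly heads was sequenced on DNA nanoballs, per the labels' protocols, in 3 libraries of each of 3 genotypes. The authors deposited 1 file per library with TPM values, per the file headers. Salmon and DESeq2 are named in the submitters' processing notes, with no version, and a genome build was not given in the sources used here. Tables of the authors' own comparisons were left out.

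Symbols were matched to the Ensembl 115 annotation of BDGP6.54, where 16016 were current, 752 matched through a synonym and 69 did not match; coordinates are from that annotation. TPM values were taken as log2(TPM + 0.5), and genes that reached 1 TPM in 3 or more of the 9 libraries were fitted with limma 3.58.1 (R 4.3.3) with a trended prior, all 9 libraries and 1 mean per genotype, which was checked on simulated data. Tests were two-sided with Benjamini-Hochberg adjustment and a threshold of 0.05. Python 3.11.15, pandas 2.3.3, numpy 2.4.6 and matplotlib 3.10.9 made the tables and plots.

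The members and the 35 gene lists were chosen with earlier results of these data known. The genes named are Chd1 and elav, the 12 largest rises and falls among called genes of at least 5 TPM whose groups did not overlap, genes at 0 in 1 group, 2 defining genes and the 4 largest called changes of each list, and up to 6 called genes near Chd1; any other gene is said to be a later choice. Alternatives were other pseudocounts, filters and scaling, an untrended prior, the 6 libraries alone, a replicate block and leaving out each library. TPM carry no depth, so no counting interval is given. Replicate numbers were not taken to pair the libraries.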

Additional observations from a re-analysis of the deposited data

How the results depend on the processing

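The fall of Chd1 was called under all 14 alternatives (limma adjusted p = 9.2e-07 to 5.3e-05), with a log2 fold change of -0.74 to -0.62 when 1 library was left out. Leaving out 1 library gave 8133 to 8770 called genes and 902 to 981 that also changed by at least 1 on the log2 scale (the fold rule). Counts by size depended on how low values were treated, since the pseudocount sets the fold change of low genes and the filter sets which are tested. With a pseudocount of 0.1, 1604 genes passed the fold rule, 1200 higher and 404 lower, and with a pseudocount of 1 the lower genes were 73. With a filter of 10 TPM in 3 or more libraries, 7472 genes were tested, 527 passed the fold rule, 434 of them higher, and 1579 were called higher. Median-ratio scaling moved the median of all genes from -0.15 to -0.10 and the higher share of the calls from 39.27% to 42.4%.

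Of the 206 named genes, 5 lost and 3 gained the call under at least 1 alternative and 6 that were not called changed sign. These were ATPsynbeta (-0.01577 to 0.03201 when a library was left out), Prosalpha1 (-1.815 to 0.3353 likewise), RpS3 (0.0088) and Vha55 (0.0022) with median-ratio scaling, lncRNA:roX1 (0.02928 with that scaling, -0.101 to 0.07943 when a library was left out) and lncRNA:roX2 (-0.271 to 0.06595 likewise). The cause was not tested. ATPsynbeta was higher with that scaling (0.06, limma adjusted p = 0.046, and up to 0.92 over the alternatives) and Vha55 lower without wild-type replicate 3 (-0.10, limma adjusted p = 0.0065, and up to 0.95). The medians of 32 of 35 lists kept their sign; those of the proton pump, lipid metabolism (-0.02 to 0.06) and immune recognition (-0.15 to 0.10) lists did not.

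With the replicate number as a block, 8527 genes were called, 943 by the fold rule (803 higher and 140 lower), and Chd1 stood at -0.67. Deviations from the group means correlated at 0.000013, 0.06 and 0.03 between wild-type and elav>Chd1 libraries of the same number, so the numbers were not taken to pair the libraries. TPM do not show the depth of a library, which limits what can be read from genes near 1 TPM.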

Other observations

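Some members of the lists went against the rest of their list. The relaxin-like peptide gene Ilp8, chosen after its values were seen, stood at 118, 111 and 125 TPM in wild type and 103, 92.2 and 91.5 TPM in elav>Chd1 and was the lower one among the neuropeptide genes (-0.30). The germline ligand gene grk, the sole germline gene called higher and also a later choice, stood at 20.3, 21.2 and 19.3 TPM and 23.4, 25.1 and 23.3 TPM (0.23). Among genes of the male list, 4 were higher: the esterase gene Est-6 (0.44), the testis genes Mst36Fa (0.45) and Mst36Fb (0.49), and bol, a regulator of meiosis in the testis (0.67), all named after their values were seen. Mst36Fa and Mst36Fb passed the filter only through the Chd1-deficient libraries.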
